A study of Mus musculus with 16 samples.

Results

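Promoter contacts of mouse liver were compared between ZT0, the moment of lights on, and ZT6, the middle of the light phase. Livers came from male C57BL/6 wild type mice, a standard inbred strain, given as 8 week old in the labels. The methods add 2 weeks of housing in light and dark phases of 12 h each, with food available at all times, so the age may be that at the start of this housing. Zeitgeber time (ZT) counts the hours since lights on. Promoter Capture Hi-C (P-CHi-C) was used: HindIII digests crosslinked chromatin, nearby fragment ends are joined by ligation, and joined molecules with a promoter fragment, the bait, are pulled out with RNA probes and sequenced. Each timepoint had 3 pools of 2 livers, with pool A sequenced on 2 lanes, so 8 of the 16 samples belong to ZT0 and ZT6. The authors merged the pools of a timepoint before calling interactions. There is therefore 1 list per timepoint, no replicate error, and no test of any difference between ZT0 and ZT6. The intervals given with shares are 95% Wilson intervals, which cover counting error only, and pairs that share a promoter are not independent.

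A pair was taken as 2 HindIII fragments in either order and their CHiCAGO score, which grows as the reads joining both fragments exceed those that distance and technical noise would give. Pairs with a score of at least 5 are listed, so a pair that is absent from a list may lie just under 5. The ZT0 list held 146262 pairs and the ZT6 list 154775, and together they held 196379 of the 247177 distinct pairs of all 4 timepoints. A pair listed at ZT0 and absent at ZT6 is called lost below, and a pair listed at ZT6 and absent at ZT0 is called gained. The ZT12 list, at lights off, held 151529 pairs and the ZT18 list 151347, and both serve only as a reference for the size of the differences. In a summary that accompanies the study, the total of the list labelled ZT12 stands under ZT6. The labels were followed here, and it is stated below which named changes turned when the ZT12 list was read as ZT6. The lists hold no RNA levels, so the labelled tissue could not be checked against expression, and the read depth behind the lists was not analysed here.

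Enhancers can lie far along the chromosome from the gene they act on, and looping of the chromatin fibre brings them near its promoter. In liver, a clock in each cell runs through transcription factors that switch one another on and off. BMAL1, encoded by Arntl, and CLOCK activate the Per, Cry, Nr1d1 and Dbp genes through E-boxes. PER and CRY proteins hold the activators back, and NR1D1 represses Arntl. In mice, which eat mostly at night, the light phase is the fasting part of the day.

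To show what the contacted regions look like, 6 of the strongest switched fragments without an exon and of at most 250 bp are printed, chosen after their values were seen. All are read on the plus strand of mm9, and the capitals mark what is left of the HindIII site at both ends. The fragments lost after ZT0 were contacted by the promoters of Pdgfrl, Stk30 and Lhx9, and those gained at ZT6 by the promoters of Fndc8, Cyfip1 and Abt1.
Pdgfrl lost contact: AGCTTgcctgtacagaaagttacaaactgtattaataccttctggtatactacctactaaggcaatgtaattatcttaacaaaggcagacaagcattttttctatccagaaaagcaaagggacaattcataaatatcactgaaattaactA
Stk30 lost contact: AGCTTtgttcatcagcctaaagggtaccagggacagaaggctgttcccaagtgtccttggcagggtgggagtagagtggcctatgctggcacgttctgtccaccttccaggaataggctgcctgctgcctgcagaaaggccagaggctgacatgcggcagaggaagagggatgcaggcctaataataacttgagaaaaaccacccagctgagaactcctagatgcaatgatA
Lhx9 lost contact: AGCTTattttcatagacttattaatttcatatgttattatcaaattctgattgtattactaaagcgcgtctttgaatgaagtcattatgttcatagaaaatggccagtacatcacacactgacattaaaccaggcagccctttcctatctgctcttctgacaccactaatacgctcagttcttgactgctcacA
Fndc8 gained contact: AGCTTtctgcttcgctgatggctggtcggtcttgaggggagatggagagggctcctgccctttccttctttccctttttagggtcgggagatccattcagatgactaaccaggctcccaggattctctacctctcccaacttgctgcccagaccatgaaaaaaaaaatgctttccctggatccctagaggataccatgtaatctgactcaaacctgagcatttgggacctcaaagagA
Cyfip1 gained contact: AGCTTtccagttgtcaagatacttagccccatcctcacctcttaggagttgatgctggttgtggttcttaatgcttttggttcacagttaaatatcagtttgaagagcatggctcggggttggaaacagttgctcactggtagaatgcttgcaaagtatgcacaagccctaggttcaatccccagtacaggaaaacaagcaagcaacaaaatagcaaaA
Abt1 gained contact: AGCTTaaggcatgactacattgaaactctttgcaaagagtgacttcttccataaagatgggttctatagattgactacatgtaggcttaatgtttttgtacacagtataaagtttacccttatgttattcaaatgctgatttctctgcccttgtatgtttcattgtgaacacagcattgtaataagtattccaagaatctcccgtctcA

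The lost fragment of Pdgfrl is chr8:41687958-41688108, in an intron of Mtmr7 and 324 kb from the bait. Its pair had a score of 19.42 at ZT0, was absent at ZT6 and returned at ZT12 with 6.39. The lost fragment of Stk30, chr12:111656923-111657154, is intergenic and 421 kb away. Its pair had 16.87 at ZT0, 15.75 at ZT12 and 9.52 at ZT18, so ZT6 was the single time at which it was absent. The lost fragment of Lhx9, a LIM homeobox gene, is chr1:141048134-141048327 in an intron of Dennd1b, and its pair was listed at ZT0 alone with 15.01. The gained fragment of Fndc8, chr11:82436442-82436679, scored 10.4 at ZT6 and then 7.39 at ZT12 and 5.87 at ZT18. The gained fragment of Cyfip1, chr7:63459404-63459622 in an intron of Herc2, followed the same course with 9.78, 6.25 and 5.08. Both gained pairs were thus highest at ZT6 and still listed at the later times. The gained fragment of Abt1, chr13:22056969-22057177, lay 1457 kb from its promoter, with 9.58 at ZT6 and 6.35 at ZT12. GC content of these fragments ranged from 32.5% at Pdgfrl to 53.0% at Stk30.

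The first comparison asked how much of the promoter contact map was shared between lights on and the middle of the day. In all, 104658 pairs (53.3% of those in either list) were in both lists. A further 41604 pairs (21.2%) were lost and 50117 (25.5%) were gained. Switched pairs were weak: the median score was 5.78 for lost and 5.83 for gained pairs, against 7.89 at ZT0 and 8.06 at ZT6 for shared pairs. Sharing climbed with score. Of ZT0 pairs with a score from 5 to under 6, 46.0% (45.5 to 46.4) were also listed at ZT6, and of those with 15 or more, 99.8% (99.7 to 99.9). For the ZT6 list the share was 40.4% in the lowest score class and 99.6% (99.4 to 99.7) in the highest. At every score the ZT6 pairs were less often found in the shorter ZT0 list than the reverse.

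**Figure D1:**
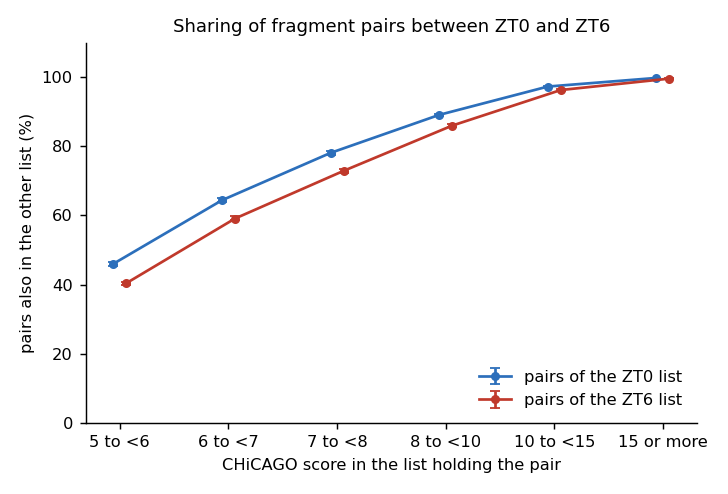
Share of pairs of one list that are also in the other (y axis, percent) by score class (x axis, CHiCAGO score), for the ZT0 list (blue) and the ZT6 list (red), with 95% Wilson intervals that are mostly smaller than the points. The share climbs from 46.0% to 99.8% for the ZT0 list and from 40.4% to 99.6% for the ZT6 list, and the red points lie below the blue ones.

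Strong switched pairs, with a score of 7 or more in one list and absent from the other, numbered 7034 lost and 9508 gained. They made up 9.69% of the ZT0 pairs and 12.3% of the ZT6 pairs with such a score. Over all ordered pairs of the 4 lists this share ran from 9.41% to 12.3%, so the ZT0 to ZT6 step holds the upper end of that range in its gains and lies near the lower end in its losses. At a score of 10 or more, 573 pairs were lost and 857 gained. Most strong switched pairs had a close stand-in: in 5678 of 7034 lost pairs (80.7%) and 7428 of 9508 gained pairs (78.1%), one of the fragments contacted another end within 10 kb in the other list. That left 1356 lost and 2080 gained pairs with no such neighbour. Of these, 400 lost and 630 gained pairs had no neighbour at any other timepoint.

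The later timepoints held about as many of the lost as of the gained contacts. Of the strong lost pairs, 52.9% (51.7 to 54.1) were listed again at ZT12 and 54.4% (53.2 to 55.5) at ZT18. Of the strong gained pairs, 55.0% (54.0 to 56.0) were still listed at ZT12 and 53.3% (52.3 to 54.3) at ZT18. Pairs shared by ZT0 and ZT6 were found at each later time in 84.7%. Listed at neither later time were 29.7% of the strong lost and 29.5% of the strong gained pairs.

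Switched pairs spanned longer distances than shared ones. The median distance between fragment midpoints was 188 kb for lost (186 to 190) and gained pairs (186 to 189), and 135 kb (134 to 136) for shared pairs. Strong switched pairs reached further, with medians of 220 kb for lost and 217 kb for gained pairs. Contacts between 2 promoters were less frequent among the gains, with both ends baits in 12.4% (12.1 to 12.7) of gained pairs. The share was 15.9% (15.6 to 16.3) among lost pairs, close to the 16.6% of shared pairs. Among strong switched pairs it was 19.4% (18.5 to 20.3) for lost and 15.4% (14.7 to 16.2) for gained pairs. It was not computed for shared pairs of such a score. The contacted fragments outside baits were of similar kinds in both directions. Of strong lost ends, 39.8% were intergenic, 28.4% intronic and 29.4% held an exon without a gene start. Of strong gained ends the shares were 37.0%, 29.6% and 31.1%.

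Of the 10 strongest lost pairs, 2 belonged to the promoter fragment of Vwa5b2. It lost its contact with the fragment of Mir1224, 11.9 kb away, from a score of 44.44 at ZT0, and its contact with the promoter of Camk2n2, 31.2 kb away, from 19.97. Neither pair was listed at any other timepoint. Camk2n2 encodes an inhibitor of the calcium/calmodulin-dependent kinase II. The promoter fragment shared by Rg9mtd2 and Mttp, which loads lipid onto apolipoprotein B in the assembly of very low density lipoprotein, lost a contact with a U6 fragment 230 kb away. That pair scored 17.9 at ZT0, 10.89 at ZT12 and 10.64 at ZT18, so again ZT6 was the one time without it. The promoter of Igf2bp3, an mRNA binding protein, lost a contact 1966 kb away near Mir148a from 17.82, with 8.86 and 10.94 at the later times. Other pairs among the 10 strongest were Pdgfrl with an intron of Mtmr7 (above), Ms4a4b with Mrpl16 at 18.36, Gm16387 with Vstm2b at 19.3, and a bait without an annotated gene start that contacted a fragment near Sp8 at 20.5. The last returned with 15.44 at ZT12 and 11.41 at ZT18. A pair between chromosomes, Hdc on chromosome 2 with an exon of Etf1 on chromosome 18, scored 20.83 and was listed at ZT0 alone. In the pairs of Mttp, Igf2bp3, Pdgfrl and the fragment near Sp8, a bait contacted another end within 10 kb of the lost one at ZT6. The pairs of Vwa5b2, Ms4a4b, Gm16387 and Hdc had no such neighbour.

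The strongest gained pairs were led by contacts between chromosomes 11 and 18. A bait with the start of Sfi1 and a bait with Gm11399 contacted the same fragment, chr18:3009258-3015786, with scores of 375.98 and 368.37 at ZT6. Both were also listed at ZT18, with 322.63 and 383.02, and were absent at ZT0 and ZT12. Whether reads of near-identical copies take part in such pairs was not tested. Within a chromosome, Dscr3 contacted the promoter of Dyrk1a, a protein kinase gene, over 45.4 kb with 51.88 at ZT6 alone. Ugt1a1, the enzyme that conjugates bilirubin, contacted an exon of Hjurp 53.4 kb away with 27.92, also at ZT6 alone. Of the 10 strongest gained pairs, 3 joined parts of the histone gene cluster on chromosome 13. Hist1h2ag and Hist1h4i contacted a fragment near Hist1h4f over 1507 kb with 26.36 at ZT6 and 6.73 at ZT18. Hist1h2ai and Hist1h2bl contacted a fragment 1955 kb away with 25.08 at ZT6, 11.04 at ZT12 and 11.7 at ZT18, and the fragment of Hist1h1e contacted that of Hist1h1b over 1835 kb with 22.17, 10.06 and 13.01. The histone cluster also held losses: the fragment of Hist1h1b had 18 strong lost pairs. Fam120b gained a contact 324 kb away that scored 22.91 at ZT6, 17.51 at ZT12 and 12.18 at ZT18, so it was missing at ZT0 alone. In each of these gained pairs except those with the chromosome 18 fragment, a bait contacted another end within 10 kb of the gained one at ZT0.

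Pairs in both lists changed little in score. The median difference, ZT6 minus ZT0, was 0.12, with quartiles at -1.23 and 1.58. The score was higher by 5 or more in 4565 pairs and lower by 5 or more in 3299. Scores thin out above about 35 in every list. Pairs from 32 to 34, 34 to 36 and 36 to 38 numbered 215, 225 and 123 at ZT0, and 268, 385 and 103 at ZT6. At ZT6 the scores thus bunched between 34 and 36. Of the 20 largest differences, 15 had their lower score between 34 and 36, so large differences were read from pairs under 34 at both timepoints, a limit chosen after the scores were seen. Among these, 4212 were higher and 2957 lower by 5 or more. The largest gain was at Phlda1, where a fragment 149 kb away went from 11.26 to 31.78. The Zmpste24 promoter, whose enzyme processes prelamin A, and a U1 fragment 13.4 kb away went from 9.78 to 30.22. Among the falls, the pair of Mrps2, a mitochondrial ribosomal protein, and Olfm1, 274 kb apart, went from 30.66 to 11.82. A pair of Grlf1 with its own intron, 93.0 kb away, went from 31.08 to 14.13.

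The next comparison asked which promoters gained or lost contacts. The number of contacts of a promoter fragment is the number of listed pairs it takes part in, from either end. Of 18165 fragments listed as bait at any of the 4 timepoints, 17407 had a contact at ZT0 or ZT6. Captured fragments that are never listed as bait are not counted. Of these, 7972 (45.8%) had more contacts at ZT6, 3245 as many, and 6190 (35.6%) fewer, and the median was 5 contacts at each timepoint. A promoter was called when its numbers differed by at least 6 contacts and at least 1.5 times. This gave 632 promoters with more contacts at ZT6, 3.63% of all tested, and 309 with fewer, 1.78%. The split moved with list length: when both lists were cut to the same length by score, 429 were called higher and 448 lower. With the list labelled ZT12 read as ZT6 the numbers were 599 and 387, of which 185 and 109 are among those called in the main comparison.

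Promoters called higher had a median of 9 contacts at ZT0 and 17 at ZT6, then 13 at ZT12 and 12 at ZT18. Those called lower had 18, 10, 13 and 14. The later timepoints thus lay between ZT0 and ZT6 in both sets. ZT6 was the highest of the 4 timepoints for 482 of the 632, and the lowest for 219 of the 309. Since ZT0 and ZT6 chose these promoters, such extremes are a description. The pairs that a promoter kept are scored in the same lists that gave its number of contacts, so their change is no independent check. The median over promoters of the median score change of shared pairs was 0.68 for those called higher. It was -0.60 for those called lower and 0.04 for the others. About as many of the switched contacts lay next to a kept one in both sets, with 52.4% of the gained contacts of promoters called higher and 51.5% of the lost contacts of those called lower within 10 kb of a shared contact. A promoter called in the same direction lay within 500 kb of 50.2% of those called higher and 50.5% of those called lower. A promoter called in the opposite direction lay that near to 22.9% and 50.5%, where 632 called higher and 309 called lower could be met. No such share was computed for promoters not called, and a pair between baits counts for both of its promoters. Whether called promoters lie nearer to each other than other promoters do was thus not tested.

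**Figure D2:**
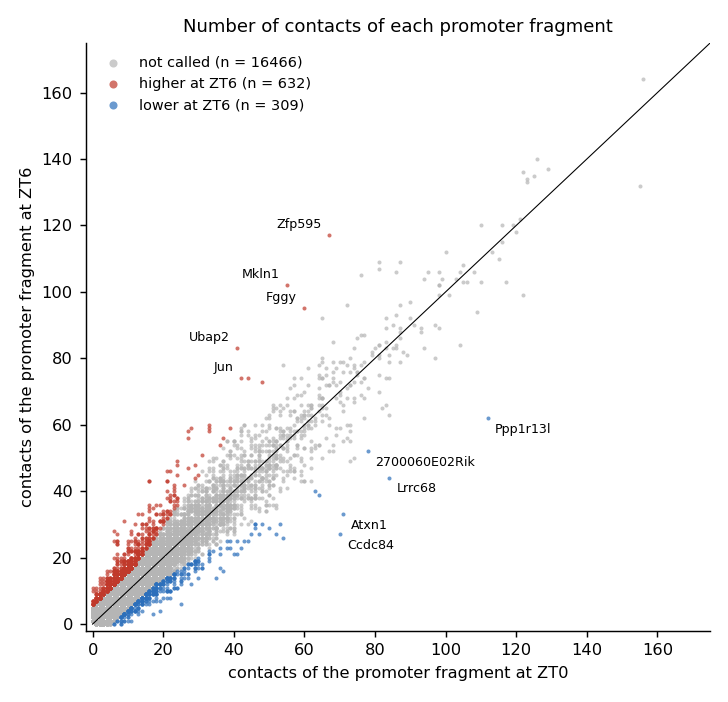
Number of contacts at ZT0 (x axis) and ZT6 (y axis) for each of 17407 promoter fragments, with those called higher (n = 632) and lower (n = 309) coloured and the others grey. Most points lie near the line of equal numbers, and the labelled promoters include Zfp595, with 67 and 117 contacts, and the Cd3eap and Ppp1r13l fragment, with 112 and 62.

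By the naming rule, the 10 protein-coding promoters with the largest rise and the 10 with the largest fall are described next. Zfp595, a zinc finger gene on the minus strand of chromosome 13 (fragment chr13:67433462-67435144), went from 67 contacts at ZT0 to 117 at ZT6, with 77 at ZT12 and 83 at ZT18. It kept 61 pairs, gained 56 and lost 6, and ZT6 stood above the other 3 timepoints. Its strongest gained contacts were the promoter of Zfp708, another zinc finger gene 235 kb away, at 11.75, and an intron of Zfp759 at 11.54. Mkln1, which encodes muskelin, had 55, 102, 74 and 63 contacts at the 4 timepoints in the same order. All 55 of its ZT0 pairs were kept, their scores went up by a median of 2.78, and none of the 47 gained ends was a promoter. Ubap2, a ubiquitin associated protein, had 41, 83, 29 and 50. ZT12 was below ZT0 here, so with the ZT12 list read as ZT6 the change turned to -12. Its gained contacts included the promoter fragment of Bag1 and Chmp5 at 11.34 and an exon of Nfx1 at 11.44.

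Jun and Fggy lie in the same stretch of chromosome 4, and both gained contacts between and around them. Jun, the AP-1 subunit induced by growth and stress signals, was in 42 pairs at ZT0 and in 74 at ZT6, followed by 58 at ZT12 and 55 at ZT18. The fragment of Jun also holds the starts of BC042782 and Gm12703. All 45 of its gained contacts lay on the same side of the fragment, from 87.7 to 836 kb away, and none was a promoter. The strongest was intergenic, 246 kb away, with 12.28 at ZT6, 8.9 at ZT12 and 7.14 at ZT18. Another gained contact of Jun, 690 kb away at 8.58, lay in an intron of Fggy. Fggy, a carbohydrate kinase gene, had 60, 95, 60 and 87 contacts, with its strongest gained contact 548 kb away at 13.57. With the ZT12 list read as ZT6, the difference was 0 for Fggy and 16 for Jun.

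Among the other large rises, Gm17664 on chromosome 11 had 28 contacts at ZT0 and 59 at ZT6, then 53 at ZT12 and 27 at ZT18. Its 4 strongest gained contacts all lay in Egfr, the gene of the epidermal growth factor receptor, with scores of 12.47, 11.56, 11.23 and 10.86, and all 4 were also listed at ZT12. Phlda1, a pleckstrin homology-like domain gene, had 44, 74, 69 and 71 contacts, so it stayed high after ZT6. Its strongest gained contact was intergenic, 323 kb away, with 15.83. The fragment with Bbc3, a BH3-only inducer of apoptosis, and Ccdc9 had 27, 56, 65 and 56. Ncoa2, a coactivator of nuclear receptors, had 33, 60, 34 and 23 contacts, so its rise was limited to ZT6. Of its 4 strongest gained contacts, 3 lay within Ncoa2 itself, 126 to 154 kb from the promoter. Ermp1, a metallopeptidase of the endoplasmic reticulum, had 27, 58, 39 and 49, with gained contacts in Uhrf2 at 10.72 and in an intron of Il33 at 8.38.

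The falls were led by a fragment on chromosome 7, chr7:19937281-19949020, where Cd3eap, which encodes a subunit of RNA polymerase I, and Ppp1r13l, an inhibitor of p53, both start. It went from 112 contacts at ZT0 to 62 at ZT6, with 86 at ZT12 and 109 at ZT18. It lost 55 pairs, 27 of them strong, and its 57 kept pairs changed in score by a median of -3.21. The lost contacts included fragments in Fosb, at 11.86, and Rtn2, at 11.83, and both were back at ZT18 with 14.41 and 14.77. Lrrc68, on the same chromosome, followed this course with 84, 44, 63 and 88 contacts. Its lost contacts lay in Gipr, Mark4, Relb and Ercc1, with scores from 8.39 to 10.45, and all 4 were listed again at ZT12 and ZT18. Grlf1, which encodes a GTPase activating protein, had 64, 39, 56 and 51. It gained none, and its 25 lost contacts all lay on the same side, from 66.3 to 300 kb away and within Grlf1, Sae1 and Zc3h4 among others.

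Ccdc84 on chromosome 9 was in 70 pairs at ZT0 and in 27 at ZT6, followed by 43 at ZT12 and 51 at ZT18. Its strongest lost contact, near Treh, scored 11.92, and a lost contact in Ddx6 with 9.45 was listed at ZT0 alone. The fragment of 5033430I15Rik and Atxn1, the gene of ataxin 1, had 71, 33, 55 and 63, and its 4 strongest lost contacts lay in introns of Atxn1, 190 to 275 kb from the promoter. Fndc3b had 52, 27, 38 and 39, and its 4 strongest lost contacts were likewise in its own introns. Arfgap2, a GTPase activating protein of the Golgi, had 63, 40, 55 and 53, with lost contacts at F2, the prothrombin gene, of 10.87 and 9.52. 2700060E02Rik had 78, 52, 48 and 58, E030010N08Rik 53, 30, 42 and 41, and Tmem190 35, 14, 15 and 22. At all 3 the numbers at ZT12 and ZT18 stayed below ZT0, as at every other of the named falls except Lrrc68. Of the 22 contacts that Tmem190 lost, 11 were with promoters, among them Ptprh at 12.1 and Ppp6r1 at 10.98.

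**Figure D3:**
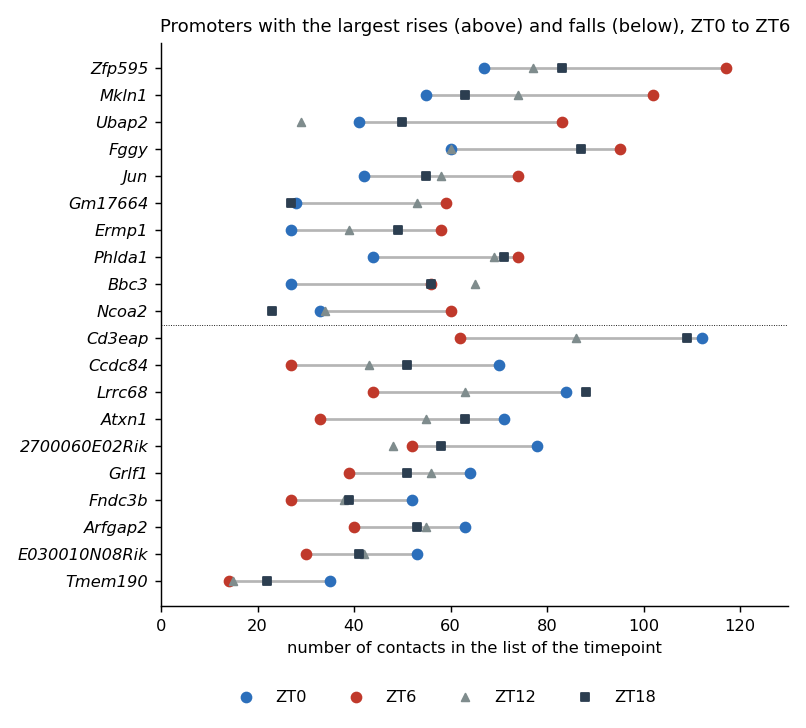
Number of contacts (x axis) at ZT0, ZT6, ZT12 and ZT18 for the 10 promoters with the largest rise (above the dotted line) and the 10 with the largest fall (below). ZT12 and ZT18 mostly lie between ZT0 and ZT6. Exceptions include Ubap2, whose 29 contacts at ZT12 are below its ZT0 value of 41, and Gm17664, whose 27 contacts at ZT18 are below 28.

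With the ZT12 list read as ZT6, 13 of these 20 promoters would no longer be called, 1 turned, and 6 kept their call. All 20 were called in lists of equal length. A call at 2 times kept 7 of the 20, and at a score of at least 7 Jun, with a difference of 10, and 2700060E02Rik, with -12, lost theirs. Some promoters gained many strong pairs without being among the 10. Lamb2, a laminin subunit, went from 6 contacts at ZT0 to 28 at ZT6, with 9 at ZT12 and 12 at ZT18, and 17 of its gained pairs were strong. Ghr, the growth hormone receptor, gained 16 strong pairs and went from 76 to 105, short of 1.5 times. In all, 6014 promoters had at least 1 strong gained pair and 5067 at least 1 strong lost pair, and 214 had 3 or more of both.

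The clock genes were described as a set of their own. Among the activators, Arntl had 3 contacts at ZT0, 0 at ZT6 and ZT12, and 2 at ZT18. The lost pairs of Arntl lay in its own introns, 33.7, 39.6 and 50.6 kb from the promoter, with scores of 5.69, 6.12 and 7.72, and the latter 2 were listed again at ZT18. Numbers this small near the lowest score of the lists carry little weight. Npas2, the partner that can replace CLOCK, had 14, 8, 8 and 12 contacts and was called lower. Its strongest lost contact, intergenic and 124 kb away, scored 9.99 at ZT0, 12.95 at ZT12 and 8.38 at ZT18. Clock had no contact at ZT0 or ZT6.

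Of the 10 repressors, 1 was called higher and 1 lower. Cry2 had 5 contacts at ZT0 and 12 at ZT6, then 7 at ZT12 and 7 at ZT18. It kept all 5 and gained 7, none of them strong, and 4 of the 7 lay in Phf21a with scores between 5.04 and 5.93. The call was lost with equal list lengths, where the difference was 5. Bhlhe41, a repressor of E-box genes, had 14, 4, 8 and 3. Of its 12 lost contacts 8 lay in Itpr2, the gene of an inositol trisphosphate receptor, and the highest score was 7.22. Counting only scores of at least 7 in both lists, the difference turned to 1, since its kept pairs in Itpr2 went from 6.17 to 9.19 and from 5.26 to 7.46. Per1 had 5, 7, 19 and 12 contacts, Per2 9, 10, 19 and 13, and Nr1d1 6, 10, 9 and 8. Per1 and Per2 thus had their highest number at ZT12 and differed little between ZT0 and ZT6 as labelled. Reading the ZT12 list as ZT6 would bring Per1 from 5 to 19 and Per2 from 9 to 19, and both would be called higher. Bhlhe40 held the most contacts of the clock genes, 108 at ZT0 and 106 at ZT6, with 18 lost and 16 gained.

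Of 17 measured promoters of clock output factors, 12 had more and 3 fewer contacts at ZT6, and their sum went from 282 to 344, a ratio of 1.22 against 1.05 for all promoters. Hlf and Dbp, with differences of 17 and 14, gave much of it. In lists of equal length 11 had more and 4 fewer, and the sum went from 282 to 328. Called higher were 2 of the 17 (11.8%, against 3.63% of all), Dbp and Tef, which encode related PAR bZIP factors, and none was called lower. Tef went from 9 contacts at ZT0 to 18 at ZT6, with 17 at ZT12 and 17 at ZT18. It kept all 9 and gained 9, of which 3 were strong. Hlf, the third PAR bZIP gene, had 68, 85, 95 and 79, and Rgs16 26, 33, 33 and 32, neither called. All 4 promoters were lowest at ZT0.

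Dbp, a main output of the clock, was in 11 pairs at ZT0 and in 25 at ZT6, followed by 24 at ZT12 and 19 at ZT18. It kept 7 pairs, lost 4 and gained 18, and 9 of the gained ends were fragments with gene starts. The strongest was the fragment of Rras and Scaf1, 688 kb away, at 14.51, followed by Ftl1, the ferritin light chain, 244 kb away, at 10.97 and the fragment of Atf5, Il4i1 and Nup62, 887 kb away, at 9.72. At Bcat2 and the gene beside it, 125 to 134 kb away, 5 fragments were gained, and 2 of these were still listed at both later times. The contact with Fgf21, a liver hormone of fasting 89.8 kb away, was listed at every time, with 8.99 at ZT0 and 11.55 at ZT6, then 14.72 at ZT12 and 11.31 at ZT18.

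Dbp was not alone in its neighbourhood. The 1 Mb window chr7:52000001-53000000, chosen after its values were seen as the window with the largest rise in the genome, holds 55 promoters with 549 contacts at ZT0 and 793 at ZT6, then 730 at ZT12 and 721 at ZT18. Of the 55, 40 had more and 13 fewer contacts at ZT6, and 18 were called higher and none lower. With equal list lengths 13 were called higher and 2 lower, and with a score of at least 7 in both lists 6 were called higher and 1 lower. Ruvbl2, a subunit of chromatin remodelling complexes, had 24 contacts at ZT0 and 48 at ZT6. Mamstr, a coactivator of the muscle factor MEF2, went from 22 to 46, Ppfia3 from 15 to 29, Prr12 from 9 to 21, Bcat2, a branched chain aminotransferase, from 22 to 33, and Car11 from 4 to 15. The fragment of Rras and Scaf1 had the largest fall of the window, 24 to 17. Pairs with a promoter of the window numbered 381 at ZT0 and 581 at ZT6. Of these, 350 and 525 lay wholly inside it, and 193 and 257 had baits at both ends, the other bait in the window or outside it. The median distance of all pairs with a promoter of the window went from 104 to 145 kb.

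**Figure D4:**
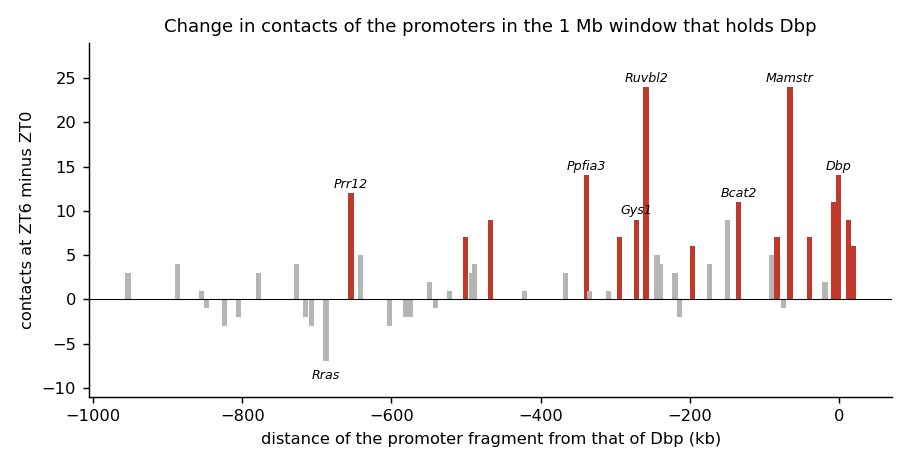
Contacts at ZT6 minus ZT0 (y axis) in the 1 Mb window that holds Dbp, by distance from the Dbp fragment (x axis, kb). Shown are the 52 promoter fragments with a protein-coding gene start. The 16 of them called higher are red, others grey. Most called promoters lie within 350 kb of Dbp, with differences of 24 at Ruvbl2 and Mamstr, 14 at Dbp and 12 at the more distant Prr12, and Rras has the largest fall.

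Some of the other windows with large differences, chosen after their values were seen, are given next. On chromosome 13, the window from 67000001 that holds Zfp595 and other zinc finger genes went from 330 to 434 contacts. On chromosome 8, the window from 114000001 with Ldhd, a lactate dehydrogenase, went from 160 to 229, and on chromosome 6 the window from 31000001, where Mkln1 is the single called promoter, from 146 to 214. Also on chromosome 6, the window from 48000001 with the Gimap genes and Repin1 went from 311 to 411. The largest fall was on chromosome 2 from 25000001, with 1022 contacts at ZT0 and 851 at ZT6 and with 6 promoters called lower and 1 higher. Abca2, a lipid transporter, was among the former with 33 and 22. The window of the class III part of the major histocompatibility complex on chromosome 17, from 35000001, went from 581 to 477, with 585 at ZT12 and 611 at ZT18. The keratin window of chromosome 11, from 99000001, had 1313 contacts at ZT0 and 1220 at ZT6, with 9 promoters called lower and 2 higher.

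Genes of liver function were read from fixed lists. Over all pathway and marker lists together, 18 of 299 promoters (6.02%) were called higher and 8 (2.68%) lower, against 3.63% and 1.78% of all promoters. Among promoters with at least 10 contacts at both timepoints, 6.01% were called higher and 3.28% lower, so these shares differ with the number of contacts. The listed promoters were not matched to the others on that number. In lists of equal length the pathway lists held 12 called higher and 10 lower, against 17 and 8 in the full lists. The called members of the lists came from many pathways, and no pathway list had more than 3 promoters called in a direction. Of the 27 called members, 10 kept their call with the ZT12 list read as ZT6, 14 did not and 3 turned. Counting only scores of at least 7 in both lists, 9 kept their call, 16 did not and 2 turned, and a call at 2 times kept 11. In lists of equal length 6 lost their call: Cry2, Nr5a2, Gbe1, Hspa5, Onecut2 and Nkg7. Among fasting and gluconeogenesis genes, 10 of 20 promoters had more and 6 fewer contacts. The fragment with Sds, serine dehydratase, had 8 contacts at ZT0 and 18 at ZT6, then 15 at ZT12 and 9 at ZT18. Slc37a4, the glucose 6-phosphate transporter of the endoplasmic reticulum, had 12, 4, 14 and 14. ZT6 stood below the other 3 timepoints, and with the ZT12 list read as ZT6 its difference was 2. Foxo1, a factor held back by insulin signalling, had 72, 96, 112 and 88 contacts, with 10 strong gains and no call.

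Of 18 promoters of amino acid breakdown and the urea cycle, 1 was called higher and 1 lower, or 5.56% each. Tdo2, which starts tryptophan breakdown and shares its fragment with Accn5, went from 7 contacts at ZT0 to 24 at ZT6, with 18 at ZT12 and 8 at ZT18. Its 3 strongest gained contacts lay 1027, 1044 and 1059 kb away near the fibrinogen genes Fga and Fgg, with scores of 9.13, 9.18 and 9.22, and all were listed at ZT12 and absent at ZT18. Gls2, liver glutaminase, had 17, 9, 11 and 13 contacts and was called lower. Slc25a15, the mitochondrial ornithine carrier, had 57 and 72 at ZT0 and ZT6, with 9 strong gains, and was not called.

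In bile acid metabolism, 2 of 19 promoters (10.5%, against 3.63% of all) were called higher and none lower. Neither kept its call at a score of at least 7 or with the ZT12 list read as ZT6. Cyp7b1, an oxysterol hydroxylase, was in 22 pairs at ZT0 and in 38 at ZT6, followed by 32 at ZT12 and 34 at ZT18, with gained contacts 632 kb away at 10.89 and 799 kb away at 9.16. Nr5a2, a nuclear receptor that drives bile acid genes, had 37, 56, 54 and 52, and its call was lost with equal list lengths, where the difference was 14. Both promoters were lowest at ZT0 and stayed high after ZT6. In the lipogenesis list 7 promoters had more and 9 fewer contacts. Acaca, acetyl-CoA carboxylase, shares its fragment with Tada2a and had 20, 12, 14 and 20 contacts. Counting scores of at least 7 in both lists, its difference turned to 3. Pnpla2, a triglyceride lipase whose fragment also holds the start of Rplp2, had 14, 21, 23 and 27. Fatty acid oxidation, cholesterol synthesis and xenobiotic metabolism had no called promoter among 17, 17 and 19. In glycogen handling, Gbe1, the branching enzyme, had 18 contacts at ZT0 and 29 at ZT6, a difference of 6 and no call in lists of equal length, while Ppp1r3b, which targets a phosphatase to glycogen, had 23 and 15.

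Among secreted plasma proteins, Serpinc1, which encodes antithrombin, had 9 contacts at ZT0 and 31 at ZT6, then 28 at ZT12 and 11 at ZT18. Its strongest gained contact, intergenic and 192 kb away, scored 13.06, and it also gained the promoter of Gas5 and Zbtb37, 58.0 kb away, at 8.59. Serpinc1 and Tdo2 thus shared a course, high at ZT6 and ZT12 and near their ZT0 number at ZT18. Apoe had 21, 10, 24 and 25 contacts, with lost contacts in Relb at 8.54 and Opa3 at 7.97. With the ZT12 list read as ZT6 its difference was 3. In the immediate early list 9 of 21 promoters (42.9%, against 45.8% of all) had more contacts and 6 fewer. At a score of at least 7, 6 had more and 9 fewer. The sum of the list went from 424 to 445, a ratio of 1.05, the same as over all promoters. Called higher were 3 of the 21 (14.3%, against 3.63% of all) and none was called lower. The 3 were Jun (above), Fos with 8 and 14 contacts, and Ier2 with 12 and 18. None of the 3 kept its call at a score of at least 7. Ier2 had 11 contacts at ZT12, so its difference turned to -1 with that list read as ZT6. Among chaperones, Hspa5, the BiP protein of the endoplasmic reticulum, had 9 and 16 contacts, with a difference of 4 and no call in lists of equal length, and the shared fragment of Hspd1 and Hspe1, the mitochondrial chaperonins, 11 and 18. Rps6kb1, the S6 kinase, which shares its fragment with Tubd1, had 16 and 25.

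Among hepatocyte transcription factors other than Nr5a2, Onecut2 had 5 contacts at ZT0 and 11 at ZT6 and Gata6 8 and 2, both called. At a score of at least 7 their differences were 0 and -1 and neither was called, and Onecut2 was not called in lists of equal length. Nr1h3, the oxysterol receptor LXRα, had 60 and 43 and was not called. The marker lists of liver cell types were summed at ZT0 and ZT6. Hepatocyte markers went from 155 to 180 contacts, and 6 of 8 promoters had more contacts and 1 fewer. Over all promoters 45.8% had more. With equal list lengths 3 of the 8 had more and 1 fewer, and the sum went from 155 to 173. The sums in the full lists were 17 and 12 for Kupffer cells and 40 and 37 for sinusoidal endothelial cells. They were 65 and 68 for stellate cells, 52 and 58 for cholangiocytes and 57 and 66 for lymphocytes. The lymphocyte gene Nkg7, with 19 and 29 contacts on a fragment shared with Cldnd2, was the single marker called. It lost its call in lists of equal length, where the difference was 6. A change in the mix of cells and a change of contacts within cells cannot be told apart in whole liver.

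Circadian genes were grouped by acrophase, the time of their highest RNA level as the study lists it, for 1087 promoter fragments. Promoters of genes that peak at ZT12 gained contacts most often: 54.7% (49.9 to 59.4) of 426 had more contacts at ZT6 than at ZT0, 25 (5.87%) were called higher and 7 (1.64%) lower, against 3.56% and 1.7% of the promoters of no such gene. In lists of equal length 18 were called higher and 11 lower. Called higher and lower in the full lists were 5.13% and 5.13% for acrophase ZT0, 3.81% and 3.11% for ZT6, and 3.39% and 2.82% for ZT18. Median contacts at ZT0 were 8, 6, 7 and 6 for acrophases ZT0, ZT6, ZT12 and ZT18. The other promoters had a median of 5, and the groups were not matched on this number. The share with more contacts was 43.1% (36.3 to 50.1) of 195 for acrophase ZT0. It was 48.4% (42.7 to 54.2) of 289 for ZT6 and 41.8% (34.8 to 49.2) of 177 for ZT18. Among all other promoters it was 45.6% (44.8 to 46.4). With equal list lengths the ZT12 share was 48.2% (43.5 to 53.0) and that of the others 39.2% (38.4 to 39.9), so both shares were lower. With the ZT12 list read as ZT6 it was 58.7%, but that of acrophase ZT18 came to 53.4%. Members with acrophase ZT12 and large gains besides Dbp were Klf13, a zinc finger factor with 23 contacts at ZT0 and 40 at ZT6, Sip1 with 16 and 32, and Gfra1 with 15 and 30. Ganab, a glucosidase of the endoplasmic reticulum with acrophase ZT18, had 16 and 35, and Repin1 with acrophase ZT0 had 16 and 34.

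**Figure D5:**
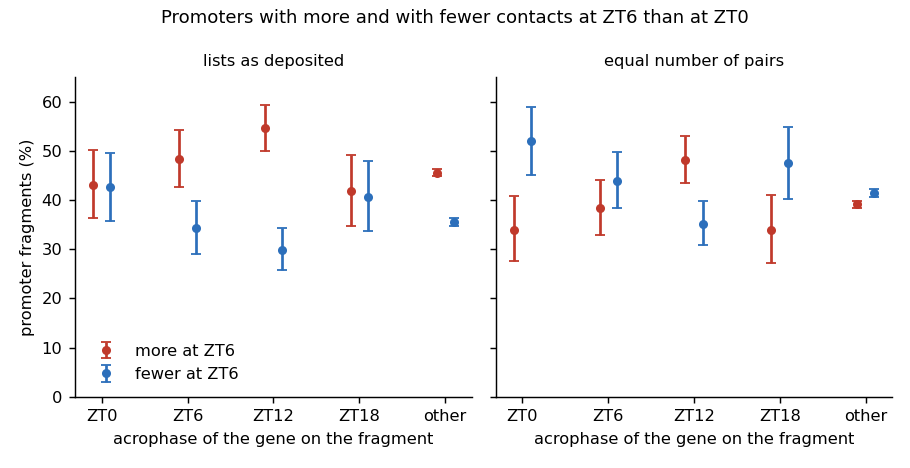
Share of promoter fragments (y axis, percent) with more and with fewer contacts at ZT6 than at ZT0, by acrophase of the gene on the fragment (x axis) and for all other promoters, from the full lists and from lists of equal length, with 95% Wilson intervals. The share with more contacts is highest for acrophase ZT12, at 54.7% in the full lists and 48.2% in lists of equal length.

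The promoters of Dbp, Jun and Tdo2, with rises, and of Bhlhe41, with a fall, are printed to show the sequence at the bait end of these contacts, and were chosen after their values were seen. Each is the 250 bases before the annotated start in mm9, on the strand of the gene: chr7:52960208-52960457 (plus) for Dbp, chr4:94718914-94719163 (minus) for Jun, chr3:81780125-81780374 (minus) for Tdo2 and chr6:145814079-145814328 (minus) for Bhlhe41. Capitals mark matches to 5 motifs searched on both strands: the E-box CACGTG, the D-box TTATGTAA, the CRE TGACGTCA, the AP-1 site TGANTCA and the CCAAT box CCAAT.
Dbp promoter: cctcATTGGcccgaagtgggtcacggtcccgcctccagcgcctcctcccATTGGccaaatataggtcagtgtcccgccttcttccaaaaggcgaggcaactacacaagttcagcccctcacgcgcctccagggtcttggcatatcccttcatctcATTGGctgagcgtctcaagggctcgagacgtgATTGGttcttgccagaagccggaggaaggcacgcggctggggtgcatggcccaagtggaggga
Jun promoter: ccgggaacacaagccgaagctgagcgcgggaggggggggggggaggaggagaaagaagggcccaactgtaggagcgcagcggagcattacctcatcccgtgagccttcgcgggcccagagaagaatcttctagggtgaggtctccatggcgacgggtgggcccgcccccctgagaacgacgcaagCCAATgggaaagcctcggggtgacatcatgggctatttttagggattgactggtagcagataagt
Tdo2 promoter: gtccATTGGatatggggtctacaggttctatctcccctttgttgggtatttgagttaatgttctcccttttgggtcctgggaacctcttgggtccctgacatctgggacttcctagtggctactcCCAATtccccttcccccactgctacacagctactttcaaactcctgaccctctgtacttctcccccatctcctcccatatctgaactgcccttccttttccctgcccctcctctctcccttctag
Bhlhe41 promoter: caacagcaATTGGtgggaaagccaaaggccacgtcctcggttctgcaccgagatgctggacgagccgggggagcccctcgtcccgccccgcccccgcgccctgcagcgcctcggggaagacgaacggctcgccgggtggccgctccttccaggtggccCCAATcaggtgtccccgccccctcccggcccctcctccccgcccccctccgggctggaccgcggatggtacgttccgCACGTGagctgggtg

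The Dbp window holds 4 CCAAT boxes, the Tdo2 window 2 and the Jun window 1. Bhlhe41 is the one of these with an E-box, 15 bases before its start, beside 2 CCAAT boxes. Of 16266 protein-coding windows, 7.22% hold an E-box and 34.4% a CCAAT box. On fragments called higher the E-box was in 5.55% (3.98 to 7.69) of 595 windows, and on fragments called lower in 11.7% (8.62 to 15.7) of 316. The CCAAT box was in 208 of 595 and in 88 of 316, or 27.8% (23.2 to 33.0). The D-box, in 0.787% of all windows, was in 1.68% (0.915 to 3.07) and 0.949% (0.323 to 2.75). CRE shares were 2.52% and 3.16% against 2.08% of all, and AP-1 shares 4.87% and 6.65% against 5.44%. These are counts of letters near gene starts, and binding was not measured.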

How the data were processed

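Per the labels, the deposited lists hold P-CHi-C interactions of liver at 4 timepoints. The authors mapped reads to mm9 with HiCUP, pooled each timepoint and ran CHiCAGO, whose score is the deposited value (tool versions not given in the sources used here). A score weighs a p-value for distance, against a background fitted for each list, so list length moves with depth, and a pair under 5 is not listed.

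Python 3.11.15 was used, with pandas 2.3.3, numpy 2.4.6 and scipy 1.17.1. Pairs were unordered and contacts counted from both ends. Fragments were placed on mm9 with GENCODE vM1, and 1000 of 1000 fragments checked began and ended at HindIII sites. A promoter was called at 6 contacts and 1.5 times difference. The counting was tested on simulated data. Named are the 10 largest called rises and falls among protein-coding promoters, the 10 strongest lost and gained pairs, called list members with up to 4 others a list, and the clock genes. Lamb2, Ghr, Hist1h1b, the windows, circadian examples and printed sequences were named after their values were seen. Members and lists were chosen with earlier results of these data known. Acrophases are those of the study's 1256 circadian genes. Alternatives were other score minimums, equal list lengths, a 10 kb tolerance, the bait column alone, a call at 2 times, the nearest bait within 5 kb, and the ZT12 list read as ZT6. The authors' differential interactions were not used. A few items that the naming rule covers are not reported here.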

Additional observations from a re-analysis of the deposited data

How the results depend on the processing

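No paired analysis was possible because interactions were called on merged pools, which also left no replicate to leave out. With a score of at least 7 in both lists, 19549 pairs were lost, 53013 shared and 24234 gained, and with at least 10 the numbers were 8377, 23661 and 10481. Counting another end within 10 kb as present gave 12099, 168382 and 15898. Strong lost and gained pairs numbered 2950 and 4115 at a score of 8, 573 and 857 at 10, and 1356 and 2080 with the 10 kb tolerance. Promoters called higher and lower numbered 283 and 166 with a score of at least 7 in both lists, and 306 and 126 with a call at 2 times. With equal list lengths the shares of promoters with more contacts were 34%, 38.3%, 48.2% and 33.9% for acrophases ZT0, ZT6, ZT12 and ZT18, and with the ZT12 list read as ZT6 the last was 53.4%. Strong lost and gained pairs had median distances of 220 and 217 kb and promoter-promoter shares of 19.4% and 15.4%. The gap between fragments gave 183 and 182 kb. Stricter scores and calls leave fewer pairs and promoters by construction, and the cause of the other differences was not tested. The median score change of shared pairs was 0.12, and 0.45 among pairs with a score of at least 10 in either list.

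Of the 632 promoters called higher and 309 called lower, 123 and 57 were still called with a score of at least 7, 429 and 309 with equal list lengths, 528 and 247 from the bait column alone, and 185 and 109 with the ZT12 list read as ZT6. With that list the changes of Ubap2, Slc37a4, Apoe and Ier2 turned to -12, 2, 3 and -1, and with a score of at least 7 those of Bhlhe41 and Acaca turned to 1 and 3. The cause was not tested. With 1 list per timepoint, differences of single promoters have no replicate check, and the weakest contacts, near a score of 5, are the least certain to be found again.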
